A study of Mus musculus with 9 samples.

Results

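Wfdc2, Clu, Pcolce and Cst3 are 4 of the 32427 genes counted in single-cell RNA libraries of 9 mouse kidneys. They were grouped because each encodes a secreted protein and because earlier results of these data had shown high levels in the distal cells of cisplatin-treated mice. Their levels in distal cells, and the differences between groups there, are therefore given as a description without a test. Of the male C57BL/6 mice sequenced, 3 were Controls, 3 belonged to the AKI-CKD group and 3 to the AKI-CKD + EGT group, called EGT mice below. Cisplatin was injected once a week at 8 mg/kg, 4 times in all, in the AKI-CKD group, a repeated toxic injury meant to model how chronic kidney disease (CKD) follows an acute injury (AKI). The EGT mice received the same cisplatin and also ergothioneine (EGT, a sulfur-containing antioxidant taken up from food) at 0.5 mg/mL in the drinking water from 3 days before the first injection. Control mice received no cisplatin, and all kidneys were taken after 8 weeks. The mice were 6 weeks old on arrival, and each library came from the kidney tissue of 1 mouse. Controls are compared with the AKI-CKD group, and this group with the EGT mice, so that both comparisons share the same 3 AKI-CKD mice.

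The tubule leaving the proximal tubule (PT) runs through the loop of Henle (LOH), the distal convoluted tubule (DCT) and the connecting tubule (CNT) to the collecting duct, which is built of principal cells (CD-PC) and intercalated cells (CD-IC). These last 5 populations are called distal cells here. WFDC2, also known as HE4, is a small protein with WAP domains, the fold of many protease inhibitors, and is measured in serum as a tumor marker that also moves with kidney function and fibrosis. Clusterin, the product of Clu, is an extracellular chaperone that holds misfolded proteins in solution and is a urinary marker of tubular injury. PCPE-1, the product of Pcolce, speeds the removal of the C-propeptide from fibrillar procollagens by BMP1-type proteases. Cystatin C, the product of Cst3, inhibits lysosomal cysteine proteases outside the cell, is made by nearly all nucleated cells, and is filtered by the glomerulus and broken down in PT cells, which is why its serum level is used to estimate filtration.

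RefSeq promoter windows of the build GRCm38.p6, 250 bases before to 50 after the transcription start, were held for 3 of the 4 genes, Wfdc2, Pcolce and Cst3. The 100 bases just before the start are shown for each because all 3 hold a GC box there, 5′ to 3′ on the strand of the gene, with the GC box in capitals (GGGCGG, or CCGCCC where it lies on the other strand).
Wfdc2, chr2:164562615-164562714, plus strand: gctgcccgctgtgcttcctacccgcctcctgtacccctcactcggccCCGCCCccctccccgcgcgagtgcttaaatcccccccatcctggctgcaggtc
Pcolce, chr5:137611405-137611504, minus strand: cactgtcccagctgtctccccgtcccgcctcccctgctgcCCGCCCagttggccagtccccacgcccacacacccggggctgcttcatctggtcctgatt
Cst3, chr2:148875513-148875612, minus strand: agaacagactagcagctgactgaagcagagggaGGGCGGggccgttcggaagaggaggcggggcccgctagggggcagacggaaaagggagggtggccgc
The first base of the GC box lay at -53 from the start in Wfdc2, at -60 in Pcolce and at -67 in Cst3, and the Cst3 window held another at 25. A GC box on either strand was found in 35.7% of all 32851 windows of this length. TATAAA (13.6% of all windows), CCAAT (37.4%), CACGTG (7.15%) and TGACTCA (5.20%) were searched on both strands and matched in none of the 3 windows. The windows were 65.3% G and C in Wfdc2, 59.3% in Pcolce and 60.3% in Cst3, against a median of 52.7% over all windows.

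The 9 matrices held 70106161 to 101525691 UMIs, each UMI standing for 1 captured RNA molecule, and 196925 of 216680 barcodes were kept as cells. Levels are given as CPM, the UMIs of the gene divided by all UMIs of the cells summed and scaled to counts in 1000000, per mouse and cell type. Clustering kept the 4 genes out of the genes it used. It gave 7470 DCT, 4588 CNT, 7145 LOH, 2613 CD-PC, 3237 CD-IC, 97018 PT, 3645 endothelial, 2828 macrophage and 1449 stromal cells by their markers, besides podocytes, T, B and cycling cells, and 63641 cells (32.3%) stayed unnamed. Among the libraries, EGT mouse 3 stood apart, with 36.0% of its kept cells in the 5 distal types against 6.09 to 14.9% in the other 8 mice. EGT mouse 1 stood apart from mice 2 and 3 of its group in most of the values below.

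The 4 genes were chosen as high in distal cells, so their order over cell types is a description. CD-IC cells are a mixture of 2 clusters, of which the smaller stood near PT levels for the members. Wfdc2 was highest in CD-PC cells at 1822 ± 699 CPM (mean ± SD over 9 mice), followed by CNT cells at 1136 ± 562, LOH cells at 900 ± 417, DCT cells at 593 ± 222 and CD-IC cells at 283 ± 97.4 CPM. CD-PC cells were above CNT cells in 9 of 9 mice and CNT above LOH cells in 7 of 9, while LOH exceeded DCT and DCT exceeded CD-IC cells in every mouse. In the larger CD-IC cluster alone, Wfdc2 was above DCT cells in 2 of 9 mice, at 552 CPM against 495 in Control mouse 2 and 509 against 467 in Control mouse 3. In PT cells, the most numerous type, the level of Wfdc2 was 20.3 ± 12.1 CPM, the lowest of the 13 named types.

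Clu was highest in CNT cells at 2243 ± 1141 CPM and in CD-PC cells at 1416 ± 575 CPM, an order seen in 6 of 9 mice. DCT cells stood at 513 ± 139 CPM and CD-IC cells at 348 ± 215 CPM with both CD-IC clusters pooled. The larger CD-IC cluster alone was above DCT cells in 3 of 9 mice, at 668 CPM of Clu against 472 in Control mouse 2, 964 against 693 in AKI-CKD mouse 1 and 942 against 478 in AKI-CKD mouse 3. LOH cells, which were rich in Wfdc2, held 66.5 ± 54.0 CPM of Clu, below the stromal cells in 8 of 9 mice. Clusterin mRNA was therefore not shared by all distal segments at a like level. PT cells were again lowest at 15.5 ± 9.43 CPM.

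Pcolce was the least abundant of the 4 in DCT, CNT, CD-PC and CD-IC cells, and the levels of its leading types, with both CD-IC clusters pooled, lay within their SD over mice. CD-IC cells held 199 ± 89.1 CPM, DCT cells 187 ± 87.2, CNT cells 168 ± 85.2 and podocytes 148 ± 117 CPM (podocytes of 8 mice with at least 20 cells), each above the next in 6 or 7 mice only. In the larger CD-IC cluster alone, Pcolce was 115 to 492 CPM and above the DCT level of the same mouse in 9 of 9 mice. LOH cells at 94.5 ± 39.3 and CD-PC cells at 79.7 ± 27.5 CPM were lower on average than podocytes. Stromal cells, which make the fibrillar procollagens that PCPE-1 acts on, held 63.5 ± 26.8 CPM. PT cells were at 3.90 ± 2.50 CPM.

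Cst3 was highest in macrophages at 5216 ± 1723 CPM and in endothelial cells at 2509 ± 631 CPM, in that order in 9 of 9 mice. CD-PC cells followed at 1552 ± 425 CPM, above CD-IC cells in every mouse with both CD-IC clusters pooled. The larger CD-IC cluster alone was above CD-PC cells in 4 of 9 mice, all 3 AKI-CKD mice among them, at 2132, 2103 and 2010 CPM against 2023, 1973 and 1595. Pooled CD-IC, stromal, podocyte and CNT levels did not separate from their neighbours beyond the spread over mice. DCT cells were eighth of 13 types at 613 ± 189 CPM, and LOH cells ninth at 578 ± 139 CPM. The same held among AKI-CKD mice alone, in which macrophages had 5259 ± 1104 CPM and endothelial cells 3196 ± 322 CPM of Cst3 against 831 ± 113 CPM in DCT cells (n = 3).

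**Figure D1:**
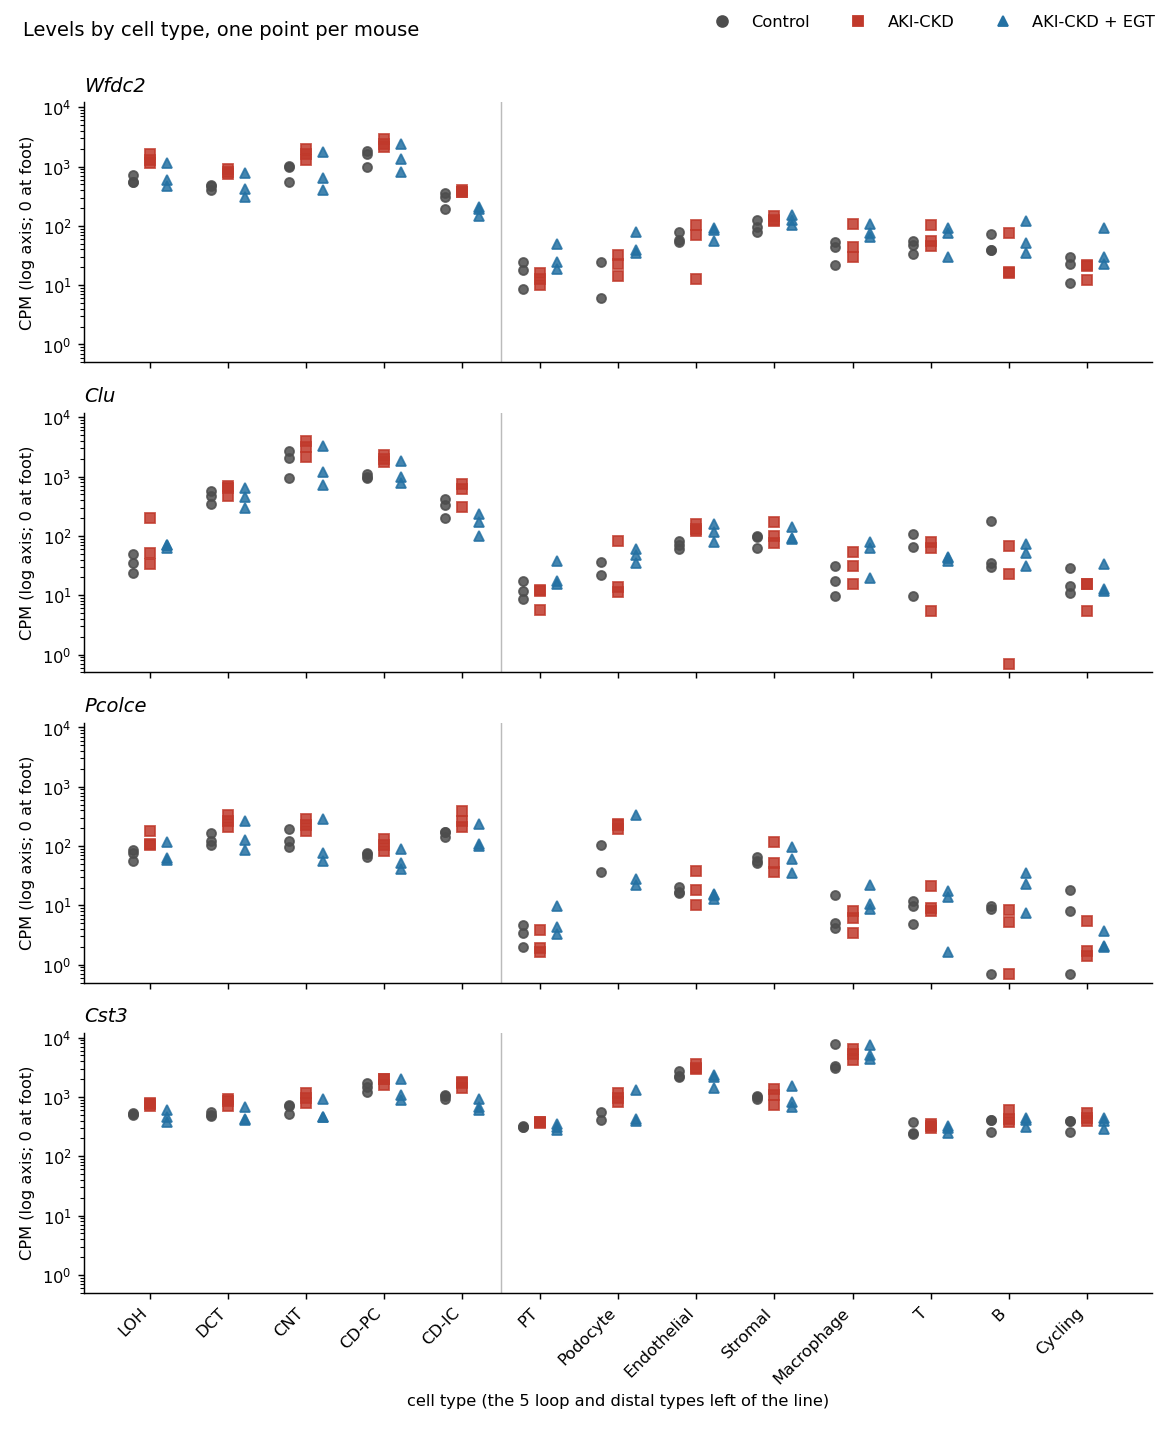
Levels of the 4 genes in CPM (log axis, mice at 0 drawn at the foot) by named cell type, with 1 point per mouse coloured by group. Wfdc2 is highest in CD-PC cells, Clu in CNT cells and Cst3 in macrophages, and the leading types of Pcolce, from 148 to 199 CPM on average, overlap.

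Counted over all mice, the 5 distal types gave most of the UMIs of the first 3 genes and a small part of those of Cst3. Of 72374 Wfdc2 UMIs, 21.3% came from CD-PC, 20.9% from LOH, 17.03% from CNT and 16.0% from DCT cells. Of 62935 Clu UMIs, CNT cells, which made up 2.33% of all cells, gave 38.8%. DCT cells gave 28.3% of the 12836 Pcolce UMIs. PT cells gave 41.9% of the 352679 Cst3 UMIs and were 49.3% of all cells, and macrophages, 1.44% of the cells, gave 13.0%. Unnamed cells, 32.3% of all, gave another 17.7%. The largest unnamed cluster, of 25257 cells, had PT as its closest marker list, so the PT shares may be too low.

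**Figure D2:**
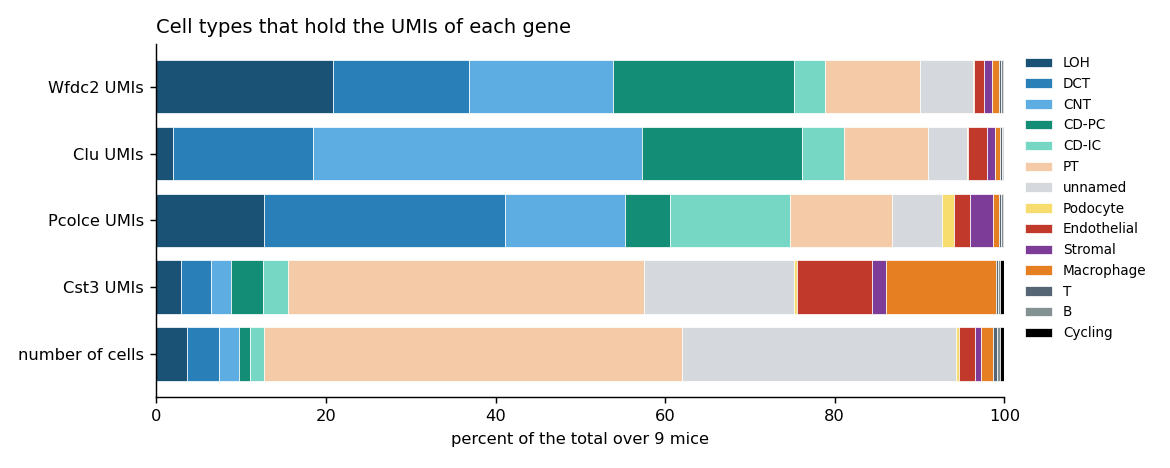
Share of each gene's UMIs (percent, summed over the 9 mice) by cell type of origin, with the share of cells in the lowest bar. CNT cells hold 38.8% of the Clu UMIs and PT cells hold 41.9% of the Cst3 UMIs.

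In DCT cells, the segment that reabsorbs sodium and chloride through Slc12a3, Wfdc2, Pcolce and Cst3 were higher in each AKI-CKD mouse than in any Control mouse, and Clu overlapped. Wfdc2 stood at 399, 495 and 467 CPM in Control mice 1, 2 and 3, at 760, 916 and 817 CPM in AKI-CKD mice and at 769, 411 and 305 CPM in EGT mice 1, 2 and 3, from 849 to 1768 UMIs per mouse. EGT mouse 1 lay among the AKI-CKD mice, mouse 2 among the Controls and mouse 3 below them. The fitted log2 fold change was 0.91 ± 0.26 (SE) for AKI-CKD against Control and -0.83 ± 0.26 for EGT against AKI-CKD. Without EGT mouse 1 the latter was -1.29 ± 0.18, and without mouse 3 it was -0.60 ± 0.23.

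Pcolce in DCT cells was likewise high in the AKI-CKD mice and in EGT mouse 1, with 103, 163 and 123 CPM in Control mice, 261, 337 and 211 CPM in AKI-CKD and 269, 127 and 86.7 CPM in EGT mice 1, 2 and 3. The lowest AKI-CKD mouse was above the highest Control mouse, and EGT mouse 1 was again among the AKI-CKD mice. Its log2 fold changes were 1.10 ± 0.35 and -0.85 ± 0.35 for the first and the second comparison. The second was -1.43 ± 0.25 without EGT mouse 1 and -0.56 ± 0.31 without mouse 3. These values rest on 223 to 651 Pcolce UMIs per mouse.

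Cst3 in DCT cells was 478, 564 and 499 CPM in Control mice, 924, 864 and 705 CPM in AKI-CKD and 664, 402 and 419 CPM in EGT mice 1, 2 and 3. It was the only one of the 4 whose EGT mice all lay below the AKI-CKD mice, although mouse 1 remained above every Control mouse. The log2 fold changes were 0.73 ± 0.20 and -0.82 ± 0.20. The second was -1.08 ± 0.17 without EGT mouse 1 and -0.74 ± 0.21 without mouse 3.

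Clu in DCT cells was 344, 472 and 570 CPM in Control mice, 693, 645 and 478 CPM in AKI-CKD and 653, 461 and 296 CPM in EGT mice 1, 2 and 3. AKI-CKD mouse 3 lay within the Control range, and the log2 fold changes of 0.43 ± 0.25 and -0.45 ± 0.25 were below 2 SE. The second was -0.75 ± 0.23 without EGT mouse 1 and -0.22 ± 0.23 without mouse 3. Of all 11021 genes that passed the filter on low counts in DCT cells, the 4 among them, 6.81% had every AKI-CKD mouse above every Control mouse and 5.09% had every EGT mouse below every AKI-CKD mouse. Nothing is read from the 3 and the 1 of 4 members in these shares, because the members were chosen on these contrasts.

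In CNT cells, where calcium is taken up under the control of vitamin D and parathyroid hormone, the mice differed more than in DCT cells. Clu was 931, 2053 and 2739 CPM in Control mice, 4010, 3140 and 2173 CPM in AKI-CKD and 3248, 1184 and 709 CPM in EGT mice 1, 2 and 3. Wfdc2 was 541, 975 and 1001 CPM in Control mice, 1648, 1977 and 1301 CPM in AKI-CKD and 1736, 639 and 409 CPM in EGT mice. For both genes EGT mouse 1 was at AKI-CKD levels and mouse 3 was below the Controls. Pcolce ranged from 98.4 to 193 CPM in Controls, against 181 to 282 CPM in AKI-CKD mice, and was 283, 76.9 and 56.1 CPM in EGT mice. The AKI-CKD mice did not overlap the Controls for Wfdc2 and Cst3, against 5.05% of 8883 genes with all mice higher, and no member had all EGT mice below the AKI-CKD mice, against 3.95% of genes.

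The log2 fold changes in CNT cells for AKI-CKD against Control were 1.05 ± 0.50 for Wfdc2, 0.80 ± 0.57 for Clu, 0.84 ± 0.56 for Pcolce and 0.65 ± 0.27 for Cst3. For EGT against AKI-CKD they were -0.92 ± 0.49, -0.95 ± 0.57, -0.84 ± 0.56 and -0.76 ± 0.27 in the same order. Without EGT mouse 1 they were -1.79, -1.85, -1.94 and -1.22, and without mouse 3 they were -0.57, -0.59, -0.46 and -0.59.

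In LOH cells, the site of urinary concentration and of uromodulin secretion, Wfdc2 was 547, 725 and 542 CPM in Control mice, 1299, 1640 and 1142 CPM in AKI-CKD and 1146, 599 and 464 CPM in EGT mice 1, 2 and 3. Wfdc2, Pcolce and Cst3 had all AKI-CKD mice above all Controls there, against 10.1% of 10430 genes. Cst3 had all EGT mice lower than the AKI-CKD mice, against 7.15% of genes. Summed PT markers in LOH cells were 77256 to 87213 CPM in Control and 30204 to 67137 CPM in AKI-CKD mice. In EGT mice they were 50330.5 to 66972 CPM. The summed LOH markers were 7312 to 11239 CPM in Control, 13483.5 to 15852.5 CPM in AKI-CKD and 7302 to 15524.5 CPM in EGT mice. The part of both in the result was not tested. Clu in LOH cells was 50.1, 34.7 and 23.4 CPM in Controls, 52.1, 204 and 33.1 CPM in AKI-CKD and 69.2, 61.6 and 70.9 CPM in EGT mice 1, 2 and 3. AKI-CKD mouse 2 alone lay far from the others, every EGT mouse was above every Control mouse, and the EGT mice were above AKI-CKD mice 1 and 3. For EGT against Control the log2 fold change of Clu was 0.82 ± 0.71. The share of all genes with every EGT mouse above every Control mouse was not counted. The log2 fold changes of Clu were 1.40 ± 0.70 and -0.58 ± 0.68 for the first and the second comparison. The other log2 fold changes for AKI-CKD against Control were 1.15 ± 0.31 for Wfdc2, 0.84 ± 0.28 for Pcolce and 0.50 ± 0.16 for Cst3.

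In CD-PC cells, which take up water through aquaporin 2, Clu was 953, 971 and 1108 CPM in Control mice, 1773, 2003 and 2358 CPM in AKI-CKD and 1827, 979 and 772 CPM in EGT mice 1, 2 and 3. Wfdc2 was 976, 1795 and 1637 CPM in Control mice, 2377, 2909 and 2170 CPM in AKI-CKD and 2380, 1338 and 819 CPM in EGT mice. Here it was Cst3 that overlapped between Control and AKI-CKD mice, and Wfdc2, Clu and Pcolce did not, against 9.1% of 9388 genes. Summed CNT markers in CD-PC cells were 43717.5 to 47106 CPM in Control and 74151 to 87404 CPM in AKI-CKD mice. In EGT mice 1, 2 and 3 this sum was 81041, 45890 and 45222.5 CPM. Summed PT markers in CD-PC cells were 31651.5 to 53255 CPM in Control and 13363 to 35860 CPM in AKI-CKD mice. They were 22086, 40375 and 55018 CPM in EGT mice 1, 2 and 3. The ribosomal share of UMIs in CD-PC cells was 8.48 to 8.87% in AKI-CKD and 5.97 to 7.68% in the other mice. The share of Malat1 was 0.74 to 0.89% and 1.11 to 1.99%, and the part of these features in the result was not tested. None of the 4 had all EGT mice below the AKI-CKD mice, against 8.45% of genes. The log2 fold changes for AKI-CKD against Control were 0.85 ± 0.32 for Wfdc2, 1.10 ± 0.25 for Clu, 0.65 ± 0.26 for Pcolce and 0.45 ± 0.25 for Cst3.

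CD-IC cells, which secrete acid or base, came from a pair of clusters that differed in the members. The smaller one had 9 raised CD-IC markers. Its leading genes began with Atp6v1c2, Atp6v1g3, Atp6v0d2, Slc26a4 and Slc4a9, and PT genes such as Kap came after them. In this smaller cluster the 4 genes stood near their PT levels, with 12.9 to 75.3 CPM of Wfdc2 and 260 to 414 CPM of Cst3 over mice. In the larger one, Cst3 was 1210, 1490 and 1648 CPM in Control mice, 2132, 2103 and 2010 CPM in AKI-CKD and 1269, 752 and 716 CPM in EGT mice 1, 2 and 3. The larger cluster made up 41.1 to 51.2% of the CD-IC cells in Control, 45.9 to 59.8% in AKI-CKD and 38.5, 56.2 and 81.9% in EGT mice. Within it Wfdc2 was 275, 552 and 509 CPM in Control mice, 516, 457 and 562 CPM in AKI-CKD and 332, 276 and 159 CPM in EGT mice, so that Control and AKI-CKD mice overlapped. Over all CD-IC cells, the smaller cluster included, Wfdc2, Pcolce and Cst3 had AKI-CKD mice above all Controls, against 9.66% of 9005 genes. Wfdc2, Clu and Cst3 had EGT mice below all AKI-CKD mice, against 10.3% of genes. Summed PT markers over all CD-IC cells were 69850 to 82871 CPM in Control and 27877 to 69463 CPM in AKI-CKD mice. In EGT mice they were 46789 to 73801 CPM. The UMI share of nuclear oxidative phosphorylation genes was 8.88 to 9.25% in Control, 10.7 to 11.9% in AKI-CKD and 8.05 to 9.98% in EGT mice. The part of both in the result was not tested.

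**Figure D3:**
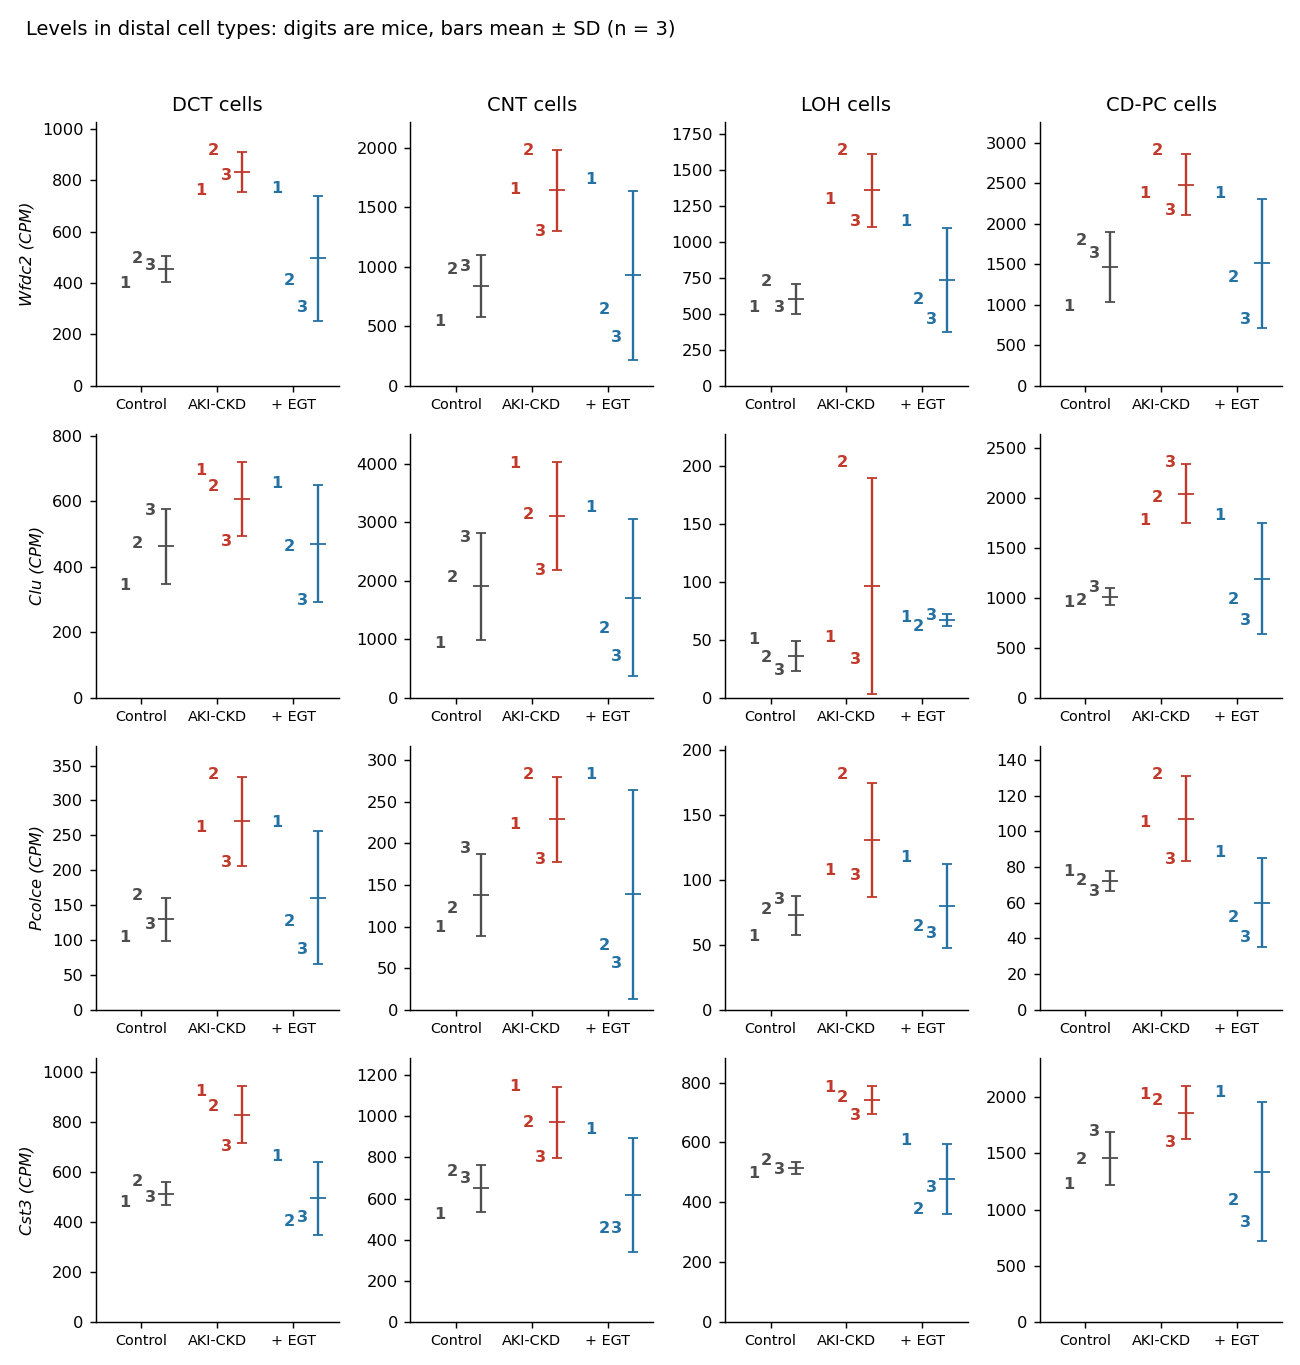
Levels in CPM (linear axes from 0) of the 4 genes in DCT, CNT, LOH and CD-PC cells by group. Digits are mice and bars are mean ± SD (n = 3), and EGT mouse 1 lies near the AKI-CKD mice in most panels while mice 2 and 3 lie at or below the Control range in most.

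The share of cells with a UMI of the gene followed the levels. With every cell thinned to 1000 UMIs, the least a kept cell could hold, 25.3 to 32.2% of DCT cells had a Wfdc2 UMI in Control, 39.7 to 44.9% in AKI-CKD and 44.6, 26.4 and 21.7% in EGT mice 1, 2 and 3. Before thinning these shares were 42.7 to 49.4%, 60.6 to 65.3% and 66.1, 41.4 and 39.5%. In PT cells, where Wfdc2 was lowest, the thinned share was 1.09 to 5.93% over the 9 mice. The median depth was 2222 UMIs in DCT cells and 3533 UMIs in PT cells before thinning. For Pcolce the thinned share of DCT cells was 8.83 to 14.9% in Control and 17.9 to 26.0% in AKI-CKD mice, and 0.18 to 1.24% of PT cells over all mice.

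Several features of the DCT cells moved with these values, and their part in the result was not tested. The summed level of 14 PT markers in DCT cells was 61774 to 78085 CPM in Control mice, 21546 to 54634 CPM in AKI-CKD and 35114, 59732 and 64242 CPM in EGT mice 1, 2 and 3. Kap alone gave most of this sum, with means of 59548, 31352 and 43340 CPM in Control, AKI-CKD and EGT mice. All 14 had a lower mean in AKI-CKD than in Control mice, 5 of them without overlap, all 14 had a higher mean in EGT than in AKI-CKD mice, and none was at 0 in every mouse. As a percent of their level in PT cells of the same mouse, the PT markers stood at 39.4 to 62.6% in Control, 24.3 to 42.6% in AKI-CKD and 31.7 to 58.1% in EGT mice. The mitochondrially encoded share of UMIs was 1.73 to 6.99%, 2.37 to 3.28% and 3.08 to 7.92% in the 3 groups, and the nuclear OXPHOS share 9.04 to 11.4%, 12.2 to 14.5% and 8.30 to 12.3%. The ribosomal share was 8.58 to 8.82% in AKI-CKD and 6.70 to 8.06% in all other mice, the share of Malat1, a nuclear RNA, 0.67 to 1.14%, 0.56 to 0.72% and 0.87 to 1.73% in Control, AKI-CKD and EGT mice, and the median depth 2460 to 2580 UMIs in AKI-CKD against 1908 to 2443 UMIs in the other mice. The ribosomal share was higher in every AKI-CKD mouse than in all other mice in PT cells too, at 8.21 to 9.20% against 6.54 to 7.63%, and in LOH, CNT and CD-IC cells, at 9.88 to 10.9%, 8.26 to 8.86% and 9.76 to 10.51% against 7.28 to 9.07%, 7.00 to 7.86% and 7.05 to 8.92%. The CNT marker sum in DCT cells was 8182 to 10256 CPM in Control, 10093 to 13840 CPM in AKI-CKD and 8304 to 10884 CPM in EGT mice, and the LOH marker sum 2971 to 5443, 4828 to 6027 and 3113 to 6507 CPM. Umod and Egf among the LOH markers and Klk1 among the CNT markers had every AKI-CKD mouse above every Control mouse. Slc12a1 among the LOH markers and Slc8a1 among the CNT markers had every AKI-CKD mouse below every Control mouse. A lower mean in AKI-CKD than in Control mice was found for 3 of 9 LOH markers and 5 of 8 CNT markers. The summed level of 12 macrophage markers in DCT cells, which bears on Cst3, was 16.9 to 69.7 CPM over all mice, against 17294 to 38157 CPM in macrophages, and was lower on average in AKI-CKD mice than in the other groups.

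The levels were also set against the markers of the cell type itself, a scale that depends on which markers carry it. The share of all genes that separate the groups on such a scale was not counted. How many members do so, here and below, is therefore a description only. Per 1000 UMIs of the 9 DCT markers, DCT cells held 61.9 to 78.5 Wfdc2 UMIs in Control, 91.1 to 133 in AKI-CKD and 51.4 to 79.9 in EGT mice. On this scale the AKI-CKD mice lay above all other mice for Wfdc2, Pcolce and Cst3, whereas in CPM EGT mouse 1 overlapped them for Wfdc2 and Pcolce. That mouse had the highest DCT marker sum, 9627 CPM against 5789 to 8345 CPM in the others. Pcolce was at 31.3 to 45.8 against 14.98 to 27.9 in the other groups, and Cst3 at 111 to 117 against 50.3 to 89.5. Clu was 77.7 to 87.6 in AKI-CKD mice, which overlapped the 53.4 to 85.9 of Control mice and lay above the 51.2 to 67.8 of EGT mice. Slc12a3 and Pvalb gave 56.5 to 69.6% of the DCT marker UMIs. Per 1000 UMIs of the other 7 markers, the AKI-CKD mice lay above every Control for all 4 genes and above every EGT mouse for Cst3 only, with Wfdc2 at 241 to 356 in AKI-CKD, 162 to 203 in Control and 153 to 263 in EGT mice.

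Per 1000 UMIs of the 8 CNT markers, Clu in CNT cells was 21.0 to 21.6 in Control, 19.6 to 23.2 in AKI-CKD and 16.7 to 20.7 in EGT mice, and Wfdc2 was 7.90 to 12.4 over all 9 mice. On this scale the AKI-CKD mice overlapped both other groups for all 4 genes. The CNT marker sum ran from 42385 to 172950 CPM, and Klk1 and S100g gave 92.4 to 96.1% of it. The mean of Klk1 in CNT cells was 51411 CPM in Control mice and 92007 CPM with AKI-CKD, and that of Calb1, another CNT marker, 2847 and 2547 CPM. Only 2 of the 8 CNT markers, Calb1 among them, had a lower mean in AKI-CKD than in Control mice. For none of the 8 did all AKI-CKD mice lie above or below all Controls. Per 1000 UMIs of the other 6 CNT markers, the AKI-CKD mice lay above all other mice for Wfdc2, at 244 to 269 against 104 to 202, for Clu, at 407 to 602 against 233 to 378, and for Pcolce, at 33.5 to 38.5 against 17.1 to 33.4, and overlapped them for Cst3. The AKI-CKD level of 3 of the 4 genes in CNT cells thus separated or overlapped with the markers chosen. The PT markers in CNT cells were 60280 to 89062 CPM in Control mice, highest in mouse 1, and 27723 to 78074 CPM in AKI-CKD mice. In EGT mice 1, 2 and 3 they were 30831, 68384 and 75083 CPM, and their part in the result was not tested. In LOH cells Pcolce and Cst3 per 1000 LOH marker UMIs overlapped between groups and Wfdc2 did not, with 82.0 to 108 in AKI-CKD and 48.2 to 74.99 in the other mice. In CD-PC cells the AKI-CKD mice lay above all other mice for all 4 genes, with Wfdc2 at 186 to 218 against 83.4 to 146. Cst3, which had overlapped in CPM, was at 139 to 160 against 67.4 to 127. The share of all genes that separated on such a scale was not counted, so the number of members that did is a description only. In CD-IC cells they overlapped the Controls for all 4 genes, with Wfdc2 at 36.5 to 48.8 in AKI-CKD and 37.8 to 57.6 in Control mice. Without the 2 most abundant markers of each type, Wfdc2 in LOH cells and all 4 genes in CD-PC cells again had the AKI-CKD mice above all others, and all 4 genes in CD-IC cells again overlapped.

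**Figure D4:**
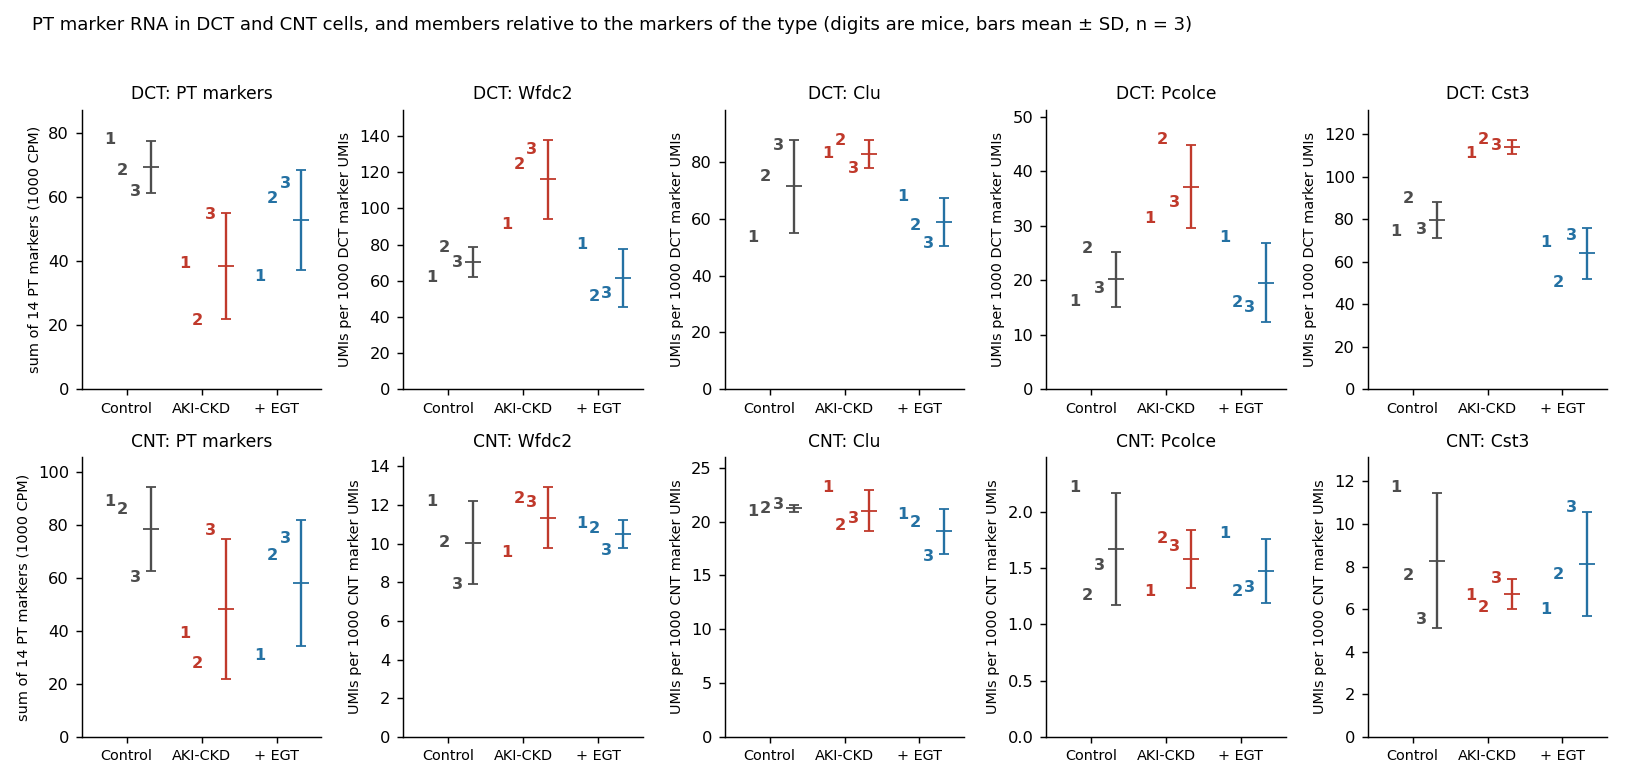
UMIs of each gene per 1000 UMIs of the marker list of the cell type, by group. Digits are mice and bars are mean ± SD (n = 3). In DCT cells the AKI-CKD mice lie above the others for Wfdc2, Pcolce and Cst3, and in CNT cells, where Klk1 and S100g give 92.4 to 96.1% of the marker UMIs, they overlap both other groups for all 4 genes.

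Summed over all kept cells, Wfdc2, Clu and Pcolce did not have lower mean levels in EGT than in AKI-CKD mice. Wfdc2 was 79.1, 85.1 and 55.7 CPM in Control mice, 104, 166 and 67.5 CPM in AKI-CKD and 130, 91.2 and 152 CPM in EGT mice 1, 2 and 3. The mean was 112 CPM in AKI-CKD and 125 CPM in EGT mice for Wfdc2, 95.9 and 109 CPM for Clu, 19.2 and 22.5 CPM for Pcolce and 539 and 486 CPM for Cst3. The fitted log2 fold changes, which use TMM-scaled totals in place of CPM, were -0.06 ± 0.27, -0.01 ± 0.28, 0.02 ± 0.32 and -0.38 ± 0.14 for EGT against AKI-CKD, so that the sign for Wfdc2 and Clu turned with the scaling. EGT mouse 3, the library with 36.0% distal cells, had the lowest Wfdc2 level of all mice in each distal type and the second highest over all cells. More distal cells and more RNA per distal cell cannot be told apart in such a sum.

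The same comparisons were tested in PT, endothelial, macrophage and stromal cells as well, outside the distal cells on which the members were chosen. None of the 4 genes changed past an adjusted p of 0.05 in any of the 8 comparisons by edgeR's quasi-likelihood test, in which all 4 passed the filter on low counts. The share of all genes called was 0.0343% of 17490 in PT cells, 0% of 10393 in endothelial cells, 0% of 9135 in macrophages and 0.192% of 7800 in stromal cells for AKI-CKD against Control. For EGT against AKI-CKD it was 0%, 0.00962%, 0% and 0.0513%. At an unadjusted p under 0.05 by edgeR, 926 of 10393 endothelial and 1985 of 17490 PT genes passed in the first comparison. Clu and Cst3 in endothelial cells and Cst3 in PT cells were among them. With no member among them, 652 of 9135 macrophage and 949 of 7800 stromal genes passed too. In the second comparison 2638 of 17490 PT genes passed, all 4 members among them, and 1017 of 10393 endothelial genes, Cst3 among them. Another 823 of 9135 macrophage and 984 of 7800 stromal genes passed, no member among them. DESeq2 called Cst3 in PT and in endothelial cells in the second comparison, where it called 2.32% of the 16132 PT genes and 5.07% of the 1125 endothelial genes to which it gave an adjusted p.

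In endothelial cells, Cst3 was 2128, 2716 and 2230 CPM in Control mice, 2999, 3022 and 3567 CPM in AKI-CKD and 2179, 1439 and 2298 CPM in EGT mice 1, 2 and 3. The AKI-CKD mice lay above all others, and of all genes 6.32% had every AKI-CKD mouse above every Control mouse and 3.94% every EGT mouse below every AKI-CKD mouse. The log2 fold change was 0.47 ± 0.19 (edgeR adjusted p = 0.480) for AKI-CKD against Control and -0.79 ± 0.19 (edgeR adjusted p = 0.158) for EGT against AKI-CKD. For the second, DESeq2 gave an adjusted p of 0.0098 and edgeR run on unfiltered genes, which called 0.719% of 22948 genes, 0.0012, and over 15 alternatives the adjusted p ran from 0.0012 to 0.603. Clu in endothelial cells was 61.4, 70.3 and 81.7 CPM in Controls, against 121, 160 and 132 CPM in AKI-CKD mice, a log2 fold change of 0.99 ± 0.24 (edgeR adjusted p = 0.308, or 0.0011 without the filter, where 0.41% of genes were called). These levels were far below those of DCT, CNT and CD-PC cells. In endothelial cells the summed stromal markers were 639 to 872 CPM in Control, 1271 to 1815 CPM in AKI-CKD and 948 to 1354 CPM in EGT mice and the ribosomal share was 12.4 to 14.5% in AKI-CKD and 9.43 to 11.5% in the other mice, and their part in the result was not tested.

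In PT cells, Cst3 was 311, 321 and 310 CPM in Control mice, 375, 365 and 377 CPM in AKI-CKD and 347, 280 and 310 CPM in EGT mice. The AKI-CKD mice did not overlap either group, against 7.16% of all genes with every AKI-CKD mouse above the Controls and 3.01% with every EGT mouse below the AKI-CKD mice. The log2 fold changes were 0.33 ± 0.14 (edgeR adjusted p = 0.434) and -0.47 ± 0.14 (edgeR adjusted p = 0.233; DESeq2 adjusted p = 0.046). Wfdc2, Clu and Pcolce in PT cells took another course, with log2 fold changes of 0.98 ± 0.39, 1.04 ± 0.35 and 0.99 ± 0.43 for EGT against AKI-CKD (edgeR adjusted p = 0.295, 0.254 and 0.321). Without EGT mouse 3 they were 0.58, 0.62 and 0.49, and Cst3 was -0.25 without TMM scaling. Every EGT mouse was above every AKI-CKD mouse for Wfdc2 and Clu, as it was for 22.4% of all genes. Wfdc2 there was 10.2 to 16.2 CPM in AKI-CKD and 18.5, 24.2 and 48.7 CPM in EGT mice 1, 2 and 3. The summed level of the CNT markers in PT cells moved with it, at 970 to 1372 CPM in AKI-CKD and 1559, 1872 and 3130 CPM in EGT mice, and its part in the result was not tested.

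In macrophages Cst3 spanned 3034 to 7893 CPM among Control mice alone, wider than any difference between group means. The adjusted p-values of the 4 genes were 0.775 to 0.903 for AKI-CKD against Control and 0.576 to 0.995 for EGT against AKI-CKD by edgeR. Pcolce in macrophages, from 96 UMIs in all, had every EGT mouse above the AKI-CKD mice, against 9.56% of all genes. In stromal cells the adjusted p-values were 0.415 to 0.788 and 0.798 to 0.851, with log2 fold changes of 0.22 to 0.52 and of -0.25 to -0.18. Clu, at 0.52 and -0.19, was 1.59 and -1.22 when cells were clustered without Harmony, and 0.15 and 0.18 without AKI-CKD mouse 1. Pcolce in stromal cells, with 347 UMIs in all 9 mice, had a log2 fold change of 0.30 ± 0.41 for AKI-CKD against Control.

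**Figure D5:**
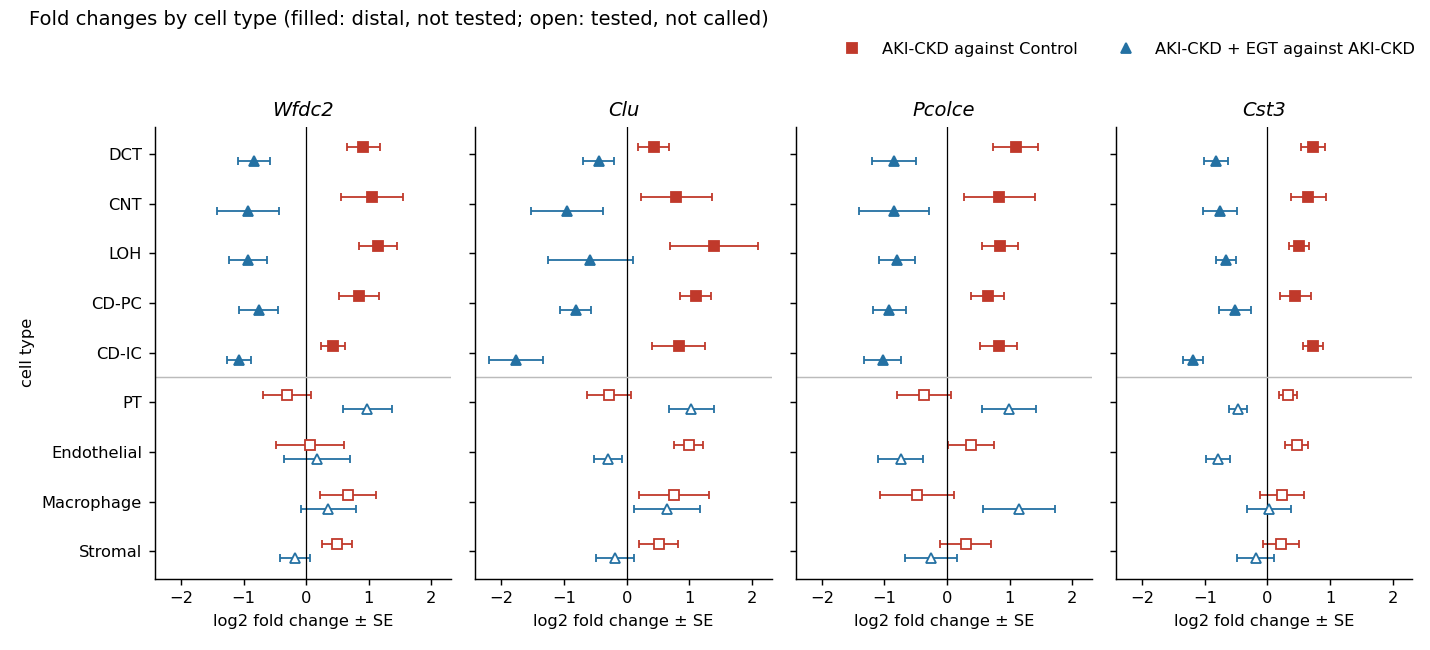
Log2 fold changes ± SE of the 4 genes by cell type for AKI-CKD against Control (squares) and EGT against AKI-CKD (triangles). Filled symbols are distal types, described without a test, and open symbols are tested populations, where none of the 4 genes passed an adjusted p of 0.05 by edgeR. Distal values, CD-IC with both clusters, lie above 0 in the first comparison and below 0 in the second, and Wfdc2, Clu and Pcolce in PT cells do not.

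The partners of the 4 proteins were followed in DCT cells by 6 lists. By edgeR, none of their genes was called in either comparison, where 1 of 11021 genes (0.00907%, Acsm3, chosen after its value was seen, lower in AKI-CKD mice) and 0% of all genes were called, and 973 and 1343 genes had an unadjusted p under 0.05. DESeq2 called none of the list genes in DCT cells either, and 14 and 45 genes in all. Of a list of protease inhibitors with WAP domains, like WFDC2, or with other inhibitor domains such as Kunitz, 4 of 13 were measured well enough to test, with a median log2 fold change of 0.34 for AKI-CKD against Control against -0.02 over all genes. The smallest unadjusted p-values were those of Wfdc15b, another WAP protein, at 1267 ± 441 CPM in Control mice, 1811 ± 412 in AKI-CKD and 1460 ± 759 in EGT mice, and Spint1, a membrane inhibitor of serine proteases with Kunitz domains, at 55.2 ± 3.28, 65.8 ± 11.4 and 61.8 ± 9.91 CPM.

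Of the clusterin receptors and secretory chaperones, 14 of 16 were tested, with medians of 0.13 and -0.23 in the 2 comparisons. The endocytic receptor Lrp2, which is also a PT marker, had a log2 fold change of -0.41 ± 0.24 and the chaperone partner Sdf2l1 0.67 ± 0.43 for AKI-CKD against Control. Of the procollagen processing genes, 7 of 25 were tested, with medians of 0.09 and -0.26. P4ha2, a subunit of the prolyl hydroxylase of procollagen, had the smallest unadjusted p for AKI-CKD against Control, at 13.9 ± 4.06 CPM in Control mice, 7.96 ± 0.43 in AKI-CKD and 8.36 ± 1.15 in EGT mice, a log2 fold change of -0.79 ± 0.31 (edgeR adjusted p = 0.532). Sfrp1, which binds Wnt ligands, was 367 ± 79.1 CPM in Control mice, 525 ± 69.1 in AKI-CKD and 417 ± 182 in EGT mice. Sfrp1 was the only one of the 16 list genes with at least 10 CPM in a cell type that was highest in a distal type, whereas 9 were highest in stromal and 6 in endothelial cells. Pcolce itself was highest in CD-IC, DCT and CNT cells.

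Of the cystatins and cysteine proteases, 9 of 19 were tested, with medians of 0.26 and -0.18. Ctsb, a lysosomal protease that cystatin C inhibits, was 212 ± 8.98 CPM in Control mice, 291 ± 11.8 in AKI-CKD and 243 ± 43.0 in EGT mice, with a log2 fold change of 0.49 ± 0.16 (edgeR adjusted p = 0.505). Ctsh, another such protease, had a log2 fold change of -0.37 ± 0.25. Other secreted or shed kidney markers had medians of 0.55 and -0.42 over 7 tested genes. Klk1, a kallikrein made by CNT cells, was 4265 ± 65.6, 6413 ± 1047 and 4660 ± 1011 CPM, and Egf, made by LOH and DCT cells, was 785 ± 72.6, 1136 ± 142 and 869 ± 217 CPM in Control mice, AKI-CKD and EGT mice (edgeR adjusted p = 0.487 and 0.497 for AKI-CKD against Control). Klk1 is one of the CNT markers.

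All 22 genes of the signal peptide and translocation machinery, through which secreted proteins enter the endoplasmic reticulum, were tested, with medians of 0.21 and -0.20. Sec61g, a subunit of the translocation channel, was 281 ± 42.7 CPM in Control mice, 381 ± 41.9 in AKI-CKD and 288 ± 35.0 in EGT mice (edgeR adjusted p = 0.505 and 0.327). Ddost, a subunit of the oligosaccharyltransferase, was 46.3 ± 4.21, 63.8 ± 6.29 and 51.2 ± 12.2 CPM. In PT cells no gene of the 6 lists was called by edgeR either, while DESeq2 called 1 for AKI-CKD against Control and 3 for EGT against AKI-CKD, beside 1.32% of 15115 and 2.32% of 16132 genes with an adjusted p. In endothelial cells, macrophages and stromal cells edgeR called 0 genes of these lists, and DESeq2 called 1 endothelial gene for AKI-CKD against Control, beside 2.69% of 520 genes, and 1 macrophage and 2 stromal genes for EGT against AKI-CKD, beside 0.194% of 2582 and 0.731% of 4926 genes. Hspa5, the main chaperone of the endoplasmic reticulum, was 466, 495 and 303 CPM on average in PT cells of Control, AKI-CKD and EGT mice (log2 fold change for EGT against AKI-CKD -0.93 ± 0.21, edgeR adjusted p = 0.233).

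Over the 13 named cell types, the genes with the pattern most like Wfdc2 were Nudt4 (r = 0.98, on log2(CPM + 1)), Tfap2b (r = 0.98) and Cd164l2 (r = 0.97), among 12151 genes. For Clu they were Slc8a1 (r = 0.96), Ermp1 (r = 0.95) and Pgam2 (r = 0.95). Slc8a1 was on the list of CNT markers but was highest in CD-PC cells. For Pcolce they were Ak1 (r = 0.96), Epn3 (r = 0.95) and Irs1 (r = 0.94), and for Cst3 Hpgd (r = 0.93), Cyfip1 (r = 0.91) and Guca1a (r = 0.91). Wfdc2 and Clu had r = 0.87 with each other and 0.72 and 0.73 with Pcolce, while Cst3 had r = 0.15 to 0.24 with the other 3. Cell types of a library share its depth and its free RNA, and these values are a description over 13 points.

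Over the 9 mice in DCT cells, the genes most like Wfdc2 were Ndufa13 (r = 0.98), Micos10 (r = 0.98) and Naa38 (r = 0.97) among 11020 others. Clu went with Lsm6 (r = 0.99), Zmat5 (r = 0.99) and Sys1 (r = 0.99), Pcolce with Ddost (r = 0.99), Rps24 (r = 0.98) and Rabac1 (r = 0.97), and Cst3 with Elp5 (r = 0.98), Ndufa13 (r = 0.97) and Rplp1 (r = 0.97). Ndufa13 is a subunit of respiratory complex I and Micos10 belongs to the complex that shapes the inner mitochondrial membrane. Rps24 and Rplp1 are ribosomal proteins. With 9 points in 3 groups, such values rank the genes and carry no p.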

How the data were processed

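Kidney tissue of 9 mice was sequenced as single-cell RNA, 3 mice for each of the groups. The authors deposited 1 matrix of UMI counts per mouse, raw and not normalized. Per the labels, PISA 1.0 and the build GRCm39 were used, and every deposited barcode held at least 1000 UMIs. Of 98290 barcode names, 62337 occurred in more than 1 library.

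Barcodes with at least 1000 UMIs, 500 genes and at most 15% mitochondrial UMIs were kept as cells. Cells were clustered on 30 principal components after Harmony, with 20 neighbours and a resolution of 1.1 (Python 3.11.15, numpy 2.4.6, scipy 1.17.1, pandas 2.3.3, scanpy 1.11.5, scikit-learn 1.9.0, igraph 0.11.9, figures with matplotlib 3.10.9). The 4 genes, the lists and the mitochondrial, ribosomal and OXPHOS genes were kept out of the clustered genes. Of 25 clusters, those with at least 3 raised markers were named. The rule that leaves clusters unnamed was revised after the clusters had been seen, which touched clusters led by PT, haemoglobin or neuronal genes and none of the 5 distal types. Scrublet called 0 to 1 doublets per library and so did not work, and no cell was removed as a doublet in the main analysis. The alternative named doublet removal dropped the 6% of cells with the highest scores of this same run in each library. It is therefore no sound check for doublets.

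Sums of counts were formed for each mouse and type (at least 20 cells) and fitted over all 9 mice with edgeR 4.0.16 (TMM, filterByExpr, robust quasi-likelihood test, Benjamini-Hochberg adjustment over all genes tested, threshold 0.05) under R 4.3.3 with limma 3.58.1, with DESeq2 1.42.0 as an alternative. CPM is UMIs scaled to 1000000 UMIs of the summed cells. The steps were tested on simulated data. The members and lists were chosen with earlier results of these data known. Beside the 4 members, up to 2 list genes with the smallest unadjusted p per list, population and comparison were eligible to be named, since none passed the adjusted threshold by edgeR, and the 3 genes most like each member. Alternatives were another normalization, filters, clustering without Harmony, doublet removal, leaving out each mouse and, added after seeing the data, DCT and CNT cells summed, levels per DCT marker UMI, with and without the 2 most abundant markers of each type, and per total over genes higher in DCT than in PT cells.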

Additional observations from a re-analysis of the deposited data

How the results depend on the processing

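In DCT cells the 4 genes kept their direction in both comparisons under every alternative run. Clu for AKI-CKD against Control, 0.43 in the main analysis, ran from 0.21 per DCT marker UMI to 0.80 with DCT and CNT cells summed. With DCT and CNT cells summed, Clu for EGT against AKI-CKD gave -0.91, and leaving out 1 mouse gave -1.29 to -0.60 for Wfdc2 and -1.43 to -0.56 for Pcolce, the lowest without EGT mouse 1. The correlations of the deviations of same-numbered mice were -0.05 to 0.17 in DCT cells and -0.29 to 0.30 in PT cells. With so few mice, these values cannot show whether same-numbered mice shared a batch. Per UMI of the CNT markers, the log2 ratios of mean levels in CNT cells were -0.016, -0.075 and -0.30 for Clu, Pcolce and Cst3 in AKI-CKD against Control and 0.27 for Cst3 in EGT against AKI-CKD. Without Klk1 and S100g among the markers they turned to 0.60, 0.51, 0.28 and -0.34. With the replicate block the log2 fold changes in DCT cells were 0.91, 0.39, 1.07 and 0.71 for AKI-CKD against Control and -0.89, -0.47, -0.90 and -0.84 for EGT against AKI-CKD in Wfdc2, Clu, Pcolce and Cst3, and 1 and 0 genes were called.

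The number of DCT genes called for AKI-CKD against Control, 1 in the main analysis, was 14 by DESeq2, 110 without the filter on low counts and 3 with only the 6 mice compared. It was 0 with DCT and CNT cells summed, with only cells holding a Slc12a3 UMI and without any 1 mouse of the groups compared. It was also 0 without the 6% of cells scored highest by Scrublet, which does not show that doublets were removed. For EGT against AKI-CKD it was 0, and 45 by DESeq2, 293 without the filter, 1 at a limit of 10% mitochondrial UMIs and 0 to 195 leaving out 1 mouse, 195 being without EGT mouse 1. Members called rose from 0 to 1 by DESeq2 in PT and endothelial cells (Cst3, EGT against AKI-CKD), and without the filter in endothelial cells to 1 in each comparison (Clu, then Cst3). For EGT against AKI-CKD DESeq2 called 375 genes in PT and 57 in endothelial cells, and unfiltered edgeR called 94 and 165 endothelial genes in the first and the second comparison.

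Some directions turned in the tested populations, none of them of a called value. Wfdc2 in endothelial cells for AKI-CKD against Control was -0.045 without Harmony, -0.0039 with the replicate block and -0.029 after doublet removal. Cst3 in macrophages for EGT against AKI-CKD was -0.17 without Harmony, -0.020 without the filter and -0.012 with the replicate block. Leaving out 1 mouse gave, for AKI-CKD against Control, -0.52 to 0.51 for Wfdc2 and -0.28 to 0.69 for Pcolce in endothelial cells, -0.16 to 1.04 for Wfdc2, -0.91 to 0.39 for Pcolce and -0.020 to 0.79 for Cst3 in macrophages, and -0.26 to 0.61 for Pcolce in stromal cells. For EGT against AKI-CKD it gave -0.28 to 0.75 for Wfdc2 in endothelial cells, -0.025 to 1.18 for Wfdc2 and -0.28 to 0.18 for Cst3 in macrophages, and -0.44 to 0.18 for Clu, -0.61 to 0.30 for Pcolce and -0.63 to 0.041 for Cst3 in stromal cells. The cause was not tested. Stromal and macrophage values of Pcolce rest on 347 and 96 UMIs in all mice, which limits them.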

Other observations

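Every pair of the members was found in the same DCT cells more often than the product of their shares, in each group. The excess was therefore not particular to Wfdc2 and Clu. With cells thinned to 1000 UMIs, 11.3% of Control DCT cells had both Wfdc2 and Clu, against 7.16% from the product. The values were 20.9% against 14.7% in AKI-CKD and 10.7% against 6.32% in EGT mice. For Clu and Pcolce, 5.45% of Control DCT cells had both, against 2.90% from the product. For Wfdc2 and Pcolce it was 5.49% against 3.38%. In CNT cells Wfdc2 and Clu were found together in 29.4% against 20.4%, 58.2% against 51.9% and 22.6% against 12.1%. Cells of 3 mice were pooled in each of these values, and the mice differ in level, which was not separated from the values.

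Clu in LOH cells of AKI-CKD mouse 2 stood at 204 CPM, where the other 8 mice had 23.4 to 70.9 CPM. This value was chosen after it was seen.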
